A study of Mus musculus with 2 samples.

Results

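Natural killer (NK) type receptors and their adaptors were followed in immature γδ T cells of the fetal mouse thymus. The group held 10 genes, matched by symbol among the 31053 genes of the count matrices: the lectin-like receptor genes Klrd1, Klrk1, Klrc1, Klre1 and Klra5, the receptor genes Cd160 and Cd7, the granule membrane protein gene Nkg7, and the adaptor genes Tyrobp and Fcer1g. The samples were 2 single-cell libraries of CD24+ γδ T cells from untreated, wild-type C57BL/6 thymic lobes, taken at embryonic day 15 and cultured for 2 days. Cells were sorted by TMRE, a dye drawn into mitochondria by their membrane potential, into a bright fraction (TMREhi) and a dim fraction (TMRElo) of 1 library each. The labels do not say how many embryos a fraction pooled. With no replicate library, no test between the fractions could be made, and the 95% intervals given here cover counting error only.

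Killer cell lectin-like receptors read MHC class I proteins and their relatives on neighbouring cells. CD94, the product of Klrd1, reaches the surface paired with an NKG2 protein, of which the inhibitory NKG2A is encoded by Klrc1. NKG2D (Klrk1) binds stress-induced ligands, KLRE1 (Klre1) pairs with KLRI proteins, and Ly49E (Klra5) belongs to the Ly49 family. Activating receptors of this kind signal through adaptors with activation motifs, among them DAP12 (Tyrobp) and the Fc receptor γ chain (Fcer1g). NK-type receptors are well known on epidermal γδ T cells of the mouse, whose precursors carry the Vγ5 chain and form the earliest γδ wave of the fetal thymus.

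TMREhi held 1202 barcodes with 4350485 unique molecular identifiers (UMIs, the counted RNA molecules) and TMRElo 196 barcodes with 245048 UMIs, and the libraries shared 0 barcodes. Retained cells, with at least 500 genes and at most 10% mitochondrial UMIs, were 317 for TMREhi, at a median depth of 7465 UMIs, and 34 for TMRElo, at 1679 UMIs. In TMRElo, 5 cells held 44.0% of the retained UMIs, against 4.70% in TMREhi. Barcodes with at least 500 genes numbered 1025 and 133. They were split into a high-ribosomal class, with at least 15% of UMIs from ribosomal protein genes (292 in TMREhi and 16 in TMRElo), and a low-ribosomal class (733 and 117). All 7 γδ T cell markers had UMIs in both libraries. Against the sort label, 117 TMREhi barcodes and 0 TMRElo barcodes held at least 2 Rag1 UMIs and no γ V segment UMI, the pattern of αβ-lineage thymocytes.

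These αβ-lineage-like barcodes, of a kind that should lack most of the 10 genes, give a limited view of free RNA in TMREhi droplets. The rule left out any that had taken up γ V RNA, so the amount may be understated. TMRElo had 0 such barcodes. The 117 of TMREhi had a median depth of 1085 UMIs, against 2031 over the 1025 TMREhi barcodes. Each gene had 0 to 2 UMIs in them, at most 9.07 counts per 1000000 UMIs (CPM), whereas the T cell receptor complex gene Cd3e stood at 486 CPM. At least 1 of the 10 genes was detected in 8.55% of them. Of the other 908 TMREhi barcodes, 52.9% (49.6–56.2) held at least 1.

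The 5 lectin-like receptor genes lie together in the natural killer gene complex on chromosome 6, and the other genes are spread over 4 chromosomes. In GRCm38 coordinates, Klre1 (chr6:129577905-129585827, + strand) and Klrd1 (chr6:129591782-129598775, + strand) are neighbours. They are followed by Klrk1 (chr6:129610323-129623864), Klrc1 (chr6:129666015-129678973) and Klra5 (chr6:129898996-129917650), all on the - strand. Tyrobp (chr7:30413760-30417585) and Nkg7 (chr7:43437073-43438249) lie on the + strand, and Cd160 (chr3:96798763-96829351), Fcer1g (chr1:171229572-171234365) and Cd7 (chr11:121036747-121039418) on the - strand. Within the complex, 23 Klr genes were annotated, of which 8 had 0 UMIs in both libraries and 7 had more than 20 UMIs in TMREhi. Klrd1 alone gave 58.2% of the 1619 TMREhi Klr UMIs. The Klra and Klrc families hold near-identical copies, so the counts of Klra5 and Klrc1 are uncertain to the extent that reads were split between copies.

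**Figure D1:**
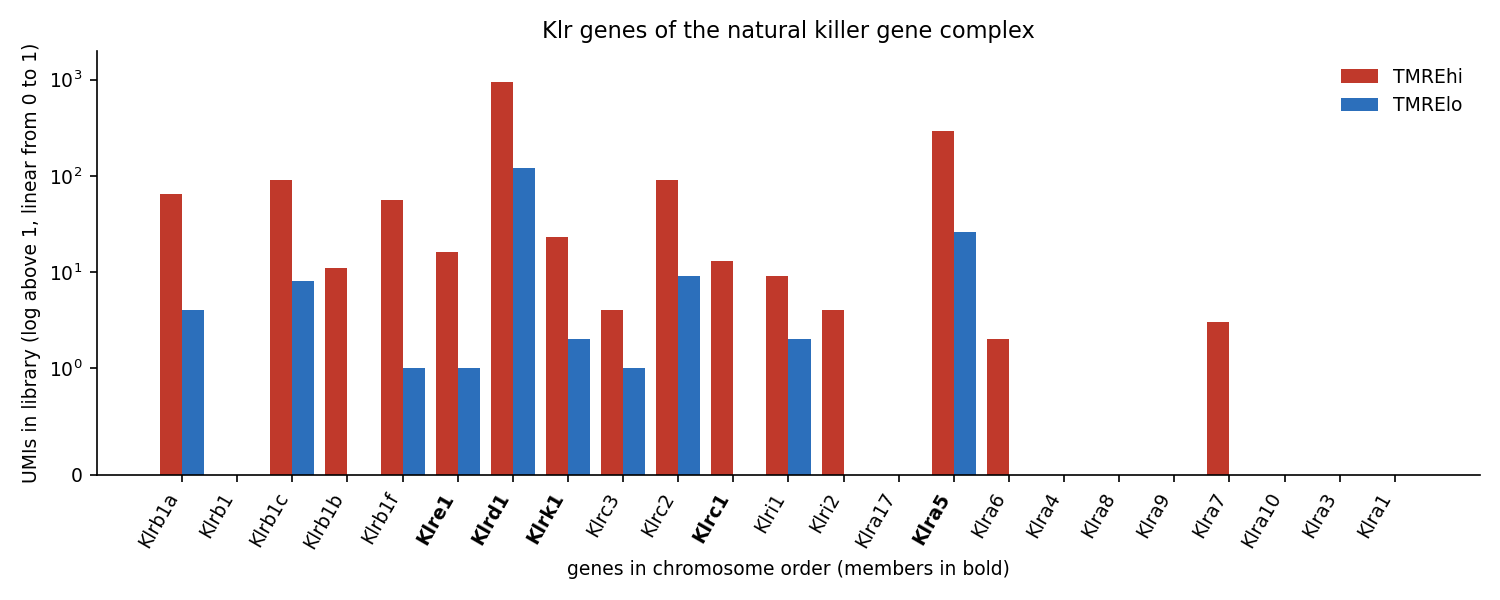
UMIs of each Klr gene of the natural killer gene complex in barcodes of TMREhi and TMRElo (y axis, log scale above 1 and linear from 0 to 1), in chromosome order with members in bold. Klrd1 had the most UMIs in TMREhi, with 58.2% of the Klr UMIs, and 8 of the 23 genes had 0 UMIs.

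The start-site regions of 4 members are printed because these genes were detected in the same barcodes (values further on) although they lie on different chromosomes. The windows run from 250 bases before to 50 bases after the RefSeq start in GRCm38.p6, 5′ to 3′ on the gene's strand, and capitals mark the RUNX letters TGTGGT or, on the other strand, ACCACA.
Cd160, chr3:96829302-96829601, - strand: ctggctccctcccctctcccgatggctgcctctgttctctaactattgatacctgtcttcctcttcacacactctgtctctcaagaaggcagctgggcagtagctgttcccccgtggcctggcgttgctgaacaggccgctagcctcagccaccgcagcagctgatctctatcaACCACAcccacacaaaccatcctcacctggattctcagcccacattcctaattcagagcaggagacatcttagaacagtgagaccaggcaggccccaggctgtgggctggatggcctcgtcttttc
Nkg7, chr7:43436888-43437187, + strand: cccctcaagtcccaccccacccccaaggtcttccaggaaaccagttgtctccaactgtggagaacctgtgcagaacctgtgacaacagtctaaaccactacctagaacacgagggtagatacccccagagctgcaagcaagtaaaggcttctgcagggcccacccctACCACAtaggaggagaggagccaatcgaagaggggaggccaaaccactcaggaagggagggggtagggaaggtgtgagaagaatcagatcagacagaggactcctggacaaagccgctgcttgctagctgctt
Fcer1g, chr1:171234300-171234599, - strand: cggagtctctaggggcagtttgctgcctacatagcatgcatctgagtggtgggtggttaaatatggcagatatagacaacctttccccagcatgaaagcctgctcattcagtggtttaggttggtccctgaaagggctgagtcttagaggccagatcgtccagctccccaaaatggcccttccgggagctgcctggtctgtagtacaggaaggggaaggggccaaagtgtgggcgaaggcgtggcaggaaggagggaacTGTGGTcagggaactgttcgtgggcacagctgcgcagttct
Klra5, chr6:129913175-129913474, - strand: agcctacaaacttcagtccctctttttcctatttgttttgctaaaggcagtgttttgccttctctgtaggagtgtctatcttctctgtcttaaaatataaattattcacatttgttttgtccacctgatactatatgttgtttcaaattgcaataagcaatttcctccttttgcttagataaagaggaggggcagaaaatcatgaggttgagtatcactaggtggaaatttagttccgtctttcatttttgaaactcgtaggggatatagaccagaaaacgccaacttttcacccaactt
The RUNX letters begin 76 bases before the start in Cd160 and 83 bases before it in Nkg7, lie just after the start in Fcer1g, and are not in the Klra5 window. RefSeq gave 9 windows for 7 members, since Cd160 and Klre1 each have a second start. The RUNX letters were in 7 of the 9, which belong to Cd160 (both windows), Fcer1g, Klrc1, Klre1, Klrk1 and Nkg7, against 16.8% of all 32851 windows of this length. The T-box letters AGGTGT or ACACCT, which can overlap the RUNX letters, were in the Nkg7 window (1 of 9, against 13.7%). The ETS letters GGAAGT or ACTTCC were in 1 of 9, the other Cd160 window (chr3:96814472-96814771, not printed), against 23.8%. TATAAA or TTTATA was in Klra5 and Klrc1 (2 of 9, against 13.6%). No window was used for Klrd1, Tyrobp and Cd7.

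The members differed most by the γ V segment that a barcode transcribed. Barcodes of TMREhi with at least 500 genes were grouped by the γ V segment with most UMIs. This gave 404 barcodes led by the Vγ1 family (Trgv2, Tcrg-V1 and Tcrg-V3), 93 by Vγ6, 73 by Vγ4, 38 by Vγ5 and 8 by Vγ7, with 82 tied and 327 without a γ V UMI. At least 1 lectin-like receptor was detected in 29 of the 38 Vγ5-led barcodes (76.3%, 59.8–88.6). The share was 16.3% (12.9–20.3) in Vγ1-family-led, 12.9% (6.85–21.5) in Vγ6-led and 12.3% (5.80–22.1) in Vγ4-led barcodes. Vγ7-led barcodes were few, with a receptor in 3 of 8 (37.5%, 8.52–75.5) in TMREhi and 3 of 4 in TMRElo. The Vγ5-led barcodes were the shallower set, with a median of 1393 UMIs against 3594.5 in the Vγ1 family. When each barcode was thinned to 1000 UMIs, which left out 159 of 1025 barcodes, the shares were 76.5% of 34 Vγ5-led, 12.6% of 390 Vγ1-family-led, 12.1% of 66 Vγ4-led and 10.7% of 84 Vγ6-led barcodes. In the αβ-lineage-like barcodes it was 1 of 64. At the same depth Cd7 was found in 82.4% of Vγ5-led, 17.9% of Vγ1-family-led, 13.6% of Vγ4-led and 22.6% of Vγ6-led barcodes, and Tyrobp in 55.9%, 5.90%, 3.03% and 4.76%. The 327 barcodes without a γ V UMI held a lectin-like receptor in 7.03% of cases (4.51–10.4). All of these barcodes come from 1 library, so the comparison is between cells and not between replicates.

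Among the receptors, the CD94 gene Klrd1 reached 1909 CPM (1652–2195) in Vγ5-led barcodes, with 172 in the Vγ1 family, 199 in Vγ6-led and 196 in Vγ4-led barcodes. The Ly49E gene Klra5 stood at 775 CPM (615–965) in Vγ5-led barcodes and at 49.3, 89.4 and 71.2 in the same order. Both receptor genes thus had a level in Vγ5-led barcodes that lay above the others beyond counting error, 11.1-fold (9.33–13.1) and 15.7-fold (11.8–20.9) over the Vγ1 family. Cd160, an immunoglobulin-type receptor of NK cells and cytotoxic T cells, stood at 1018 CPM (832–1232) in Vγ5-led, 140 in Vγ1-family-led, 399 in Vγ6-led and 134 in Vγ4-led barcodes. Its Vγ5 to Vγ1 ratio was smaller, at 7.25-fold (5.79–9.02), and Vγ6-led barcodes took the place between.

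Both adaptor genes were also highest in Vγ5-led barcodes. Tyrobp stood at 1677 CPM (1436–1946) in Vγ5-led barcodes and at 74.5 in Vγ1-family-led, 162 in Vγ6-led and 80.1 in Vγ4-led barcodes. The ratio of Vγ5-led to Vγ1-family-led barcodes was 22.5 (18.3–27.7), the highest of the members, with an interval that overlapped that of Klra5. Fcer1g stood at 1386 CPM (1168–1633) against 111, 72.2 and 120, a ratio of 12.5 (10.2–15.3) over the Vγ1 family.

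Cd7 encodes an immunoglobulin-type receptor of T and NK cells. It reached 5108 CPM (4681–5563) in Vγ5-led barcodes and 444 in Vγ1-family-led, 602 in Vγ6-led and 369 in Vγ4-led barcodes, a ratio of 11.5 (10.4–12.8) over the Vγ1 family. Nkg7, a protein of cytotoxic granule membranes, had the smallest ratio of the measured members, 3.14 (2.43–4.01), from 708 CPM (555–890) in Vγ5-led and 225 in Vγ1-family-led barcodes. In Vγ6-led barcodes it stood at 107 CPM and in Vγ4-led at 134, both below the Vγ1 family. These are 5′ end counts that were not divided by gene length, so levels of different genes are given beside each other without a comparison of transcript numbers.

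Of the 7 members at or above 50 CPM over these TMREhi barcodes, 6 were at least 5-fold higher in Vγ5-led than in Vγ1-family-led barcodes, against 0.738% of the 3250 genes measured, and 0 were 5-fold lower, against 1.63%. All 7 were at least 2-fold higher, against 10.1% of genes, and 0 were 2-fold lower, against 12.3%. Their median log2 ratio was 3.52, beside -0.12 over all 3250 genes. The T cell receptor complex genes had a ratio of 2.10 (1.73–2.53) for Cd3e, 1.27 for Cd3d, 1.40 for Cd3g and 1.33 for the δ constant gene Trdc. The Vγ5-led barcodes held 2.44% of all UMIs and 29.4% of Tyrobp, 27.5% of Klra5, 23.4% of Cd7, 21.9% of Fcer1g, 20.9% of Klrd1, 14.5% of Cd160 and 8.50% of Nkg7 UMIs.

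**Figure D2:**
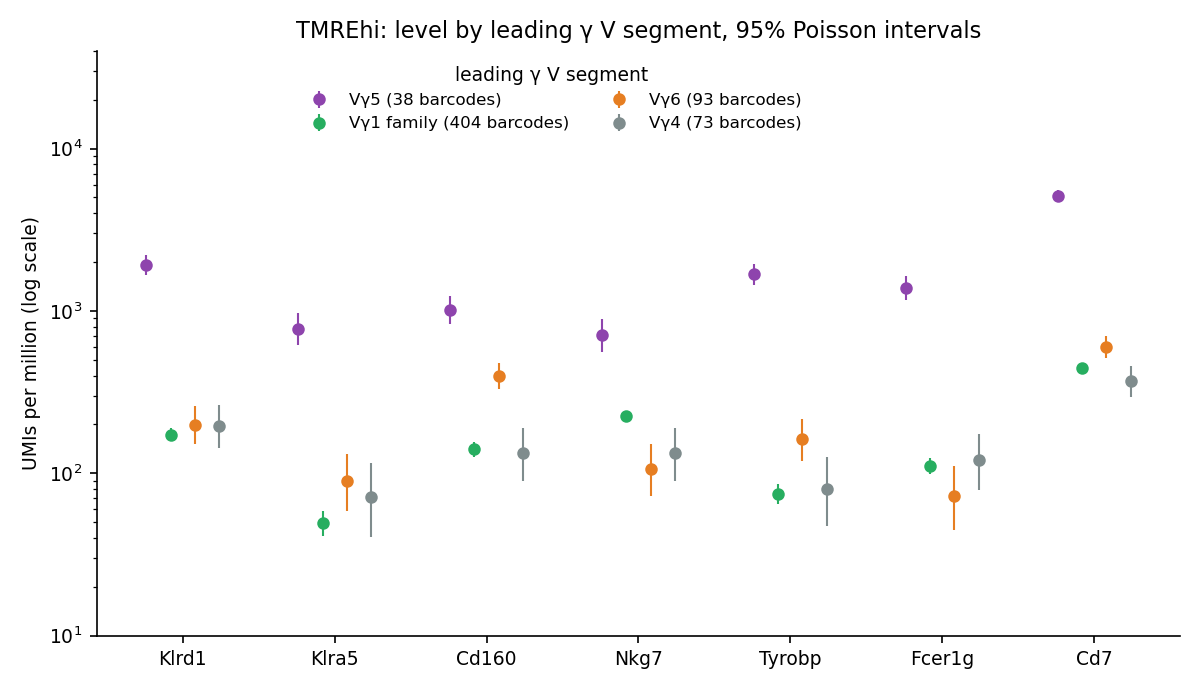
CPM (y axis, log scale) of the measured members in TMREhi barcodes led by Vγ5, Vγ1-family, Vγ6 or Vγ4 segments, with 95% Poisson intervals. The Vγ5-led points lie above the others for all 7 members. The gap to the Vγ1 family is widest for Tyrobp (1677 against 74.5) and narrowest for Nkg7 (708 against 225).

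All 7 ratios were above 2 in both ribosomal classes and without the richest barcode. Within the high-ribosomal class, where 8 barcodes were Vγ5-led, the Vγ5 to Vγ1 ratio was 25.2 for Tyrobp, 12.1 for Cd7, 11.7 for Klra5, 8.30 for Klrd1 and 2.61 for Nkg7. Within the low-ribosomal class it was 19.7 for Klra5, 16.1 for Tyrobp, 8.57 for Cd7 and 4.22 for Nkg7. Without the barcode with most UMIs of the gene in each set, Tyrobp kept a ratio of 19.0, Klra5 of 13.9, Klrd1 of 10.1 and Cd7 of 9.82. The count of 6 of 7 members past 5-fold was the same in each of these alternatives.

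Barcode by barcode, the summed members made up a median of 150 per 10000 UMIs in Vγ5-led barcodes, with an interquartile range of 58.4 to 191 and a maximum of 464. The median was 2.06 in Vγ1-family-led, 4.92 in Vγ6-led and 0 in Vγ4-led barcodes. The sets nevertheless overlapped: 4 of the 38 Vγ5-led barcodes held 0 UMIs of any member, and the highest Vγ1-family-led barcode reached 280, the highest Vγ6-led 287 and the highest Vγ4-led 420 per 10000 UMIs. TMRElo held 1 Vγ5-led and 0 Vγ6-led barcodes, so the order of segments could not be read there. Its 66 Vγ1-family-led barcodes held a lectin-like receptor in 18 cases (27.3%).

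**Figure D3:**
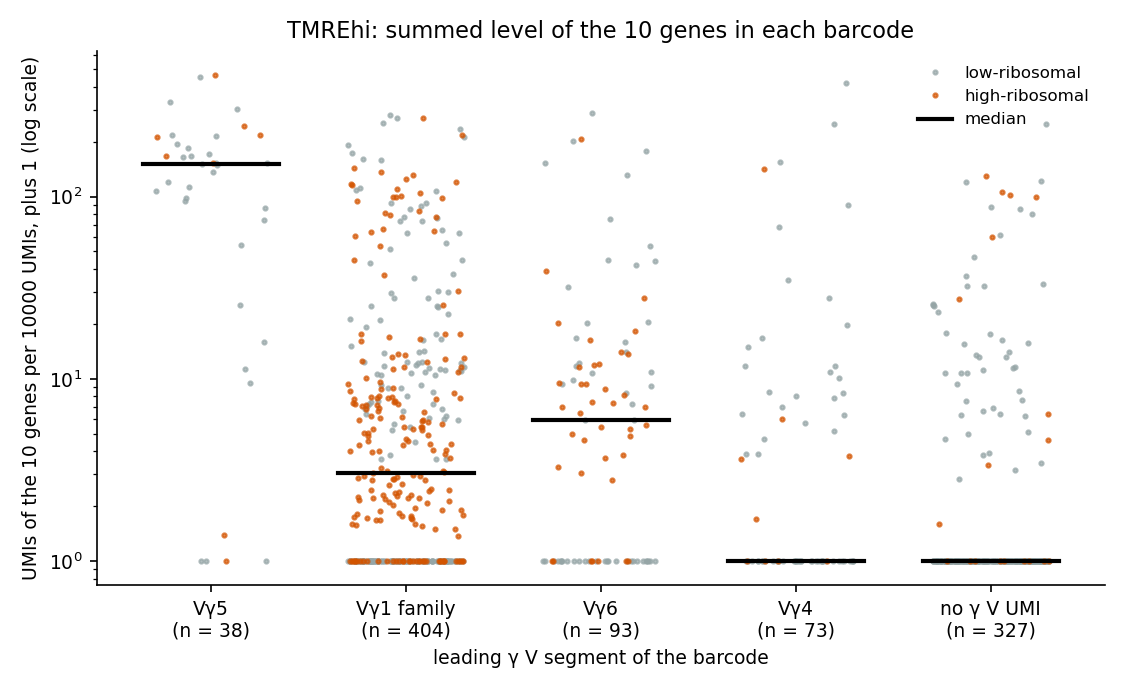
Summed UMIs of the 10 members per 10000 UMIs, plus 1 (y axis, log scale), in each TMREhi barcode (points, coloured by ribosomal class), by leading γ V segment, with a line at the median. Before 1 is added, the Vγ5-led barcodes have a median of 150 and the Vγ1-family-led a median of 2.06, with single Vγ1-, Vγ6- and Vγ4-led barcodes reaching 280, 287 and 420.

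Vγ6-led barcodes departed from the Vγ1 family by at least 2-fold in 3 of 7 members. Cd160 was 2.84-fold higher (2.29–3.51) and Tyrobp 2.17-fold higher (1.55–2.99), which made 2 of 7 members at least 2-fold higher against 5.05% of genes. The Tyrobp value came mostly from 1 barcode, which held 70.2% of the Vγ6-led Tyrobp UMIs. Nkg7 was 2.11-fold lower (1.47–3.13), against 12.4% of genes that were at least 2-fold lower. This gap was 3.64-fold in the high-ribosomal class, and in the low-ribosomal class the Vγ6 to Vγ1 ratio of Nkg7 was 1.05.

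Between the sorted fractions, 5 of the 10 members were higher in TMRElo beyond counting error among retained cells. Klrd1 had 478 UMIs in TMREhi, 165 CPM (150–180), and 44 in TMRElo, 419 CPM (304–562), which is 2.55-fold (1.83–3.47) higher in TMRElo. It was detected in 15.1% of TMREhi and 35.3% of TMRElo cells, and 1 TMRElo cell held 43.2% of the TMRElo Klrd1 UMIs. Cd160 stood at 158 CPM (144–173) in TMREhi and 495 (370–649) in TMRElo, 3.14-fold (2.31–4.19) higher, with detection in 47.9% and 41.2% of cells. For Klra5 the levels were 59.9 (51.3–69.5) and 105 (52.3–187) CPM, from 174 and 11 UMIs. Its fold of 1.75 (0.857–3.21) included 1, and only 2 TMRElo cells carried it, against 23 TMREhi cells.

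The adaptors differed less between the fractions than Cd7 and Nkg7 did. Tyrobp stood at 132 CPM (119–146) in TMREhi and 305 (208–430) in TMRElo, 2.30-fold (1.55–3.31) higher in TMRElo, where 1 cell held 43.8% of its UMIs. Fcer1g stood at 146 (132–160) and 200 (124–305) CPM, and its fold of 1.37 (0.839–2.12) included 1. Cd7 stood at 449 CPM (425–475) in TMREhi and 2113 (1844–2410) in TMRElo, 4.70-fold (4.06–5.42) higher. Nkg7 stood at 208 (192–225) and 933 (757–1137) CPM, 4.48-fold (3.58–5.55) higher in TMRElo. The shares of cells with a UMI depend on depth, which differed between the fractions. For Nkg7, 144 of 317 TMREhi cells (45.4%) and 17 of 34 TMRElo cells had a UMI. Thinned to 1000 UMIs, 14.9% (10.9–19.6) of the 282 TMREhi cells and 40.7% (22.4–61.2) of the 27 TMRElo cells that reached this depth did. At that depth the shares for Cd7 were 18.8% and 37.0%, for Cd160 11.7% and 18.5%, and for Klrd1 10.3% and 11.1%.

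The mean over both libraries reached 10 CPM for 7 members, of which 5 were at least 2-fold lower in TMREhi (Cd160, Cd7, Klrd1, Nkg7 and Tyrobp), against 30.5% of the 7802 genes measured, and 0 were 2-fold higher, against 8.77%. The median log2 ratio of TMREhi to TMRElo was -1.34 for the members and -0.35 over all measured genes. TMRElo rests on few cells. Without the cell with most UMIs of each member in each library, 3 of 7 members (Cd160, Cd7 and Nkg7) were at least 2-fold lower in TMREhi, the median was -0.77, and the TMRElo-fold was 1.71 for Klrd1 and 2.58 for Cd160.

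**Figure D4:**
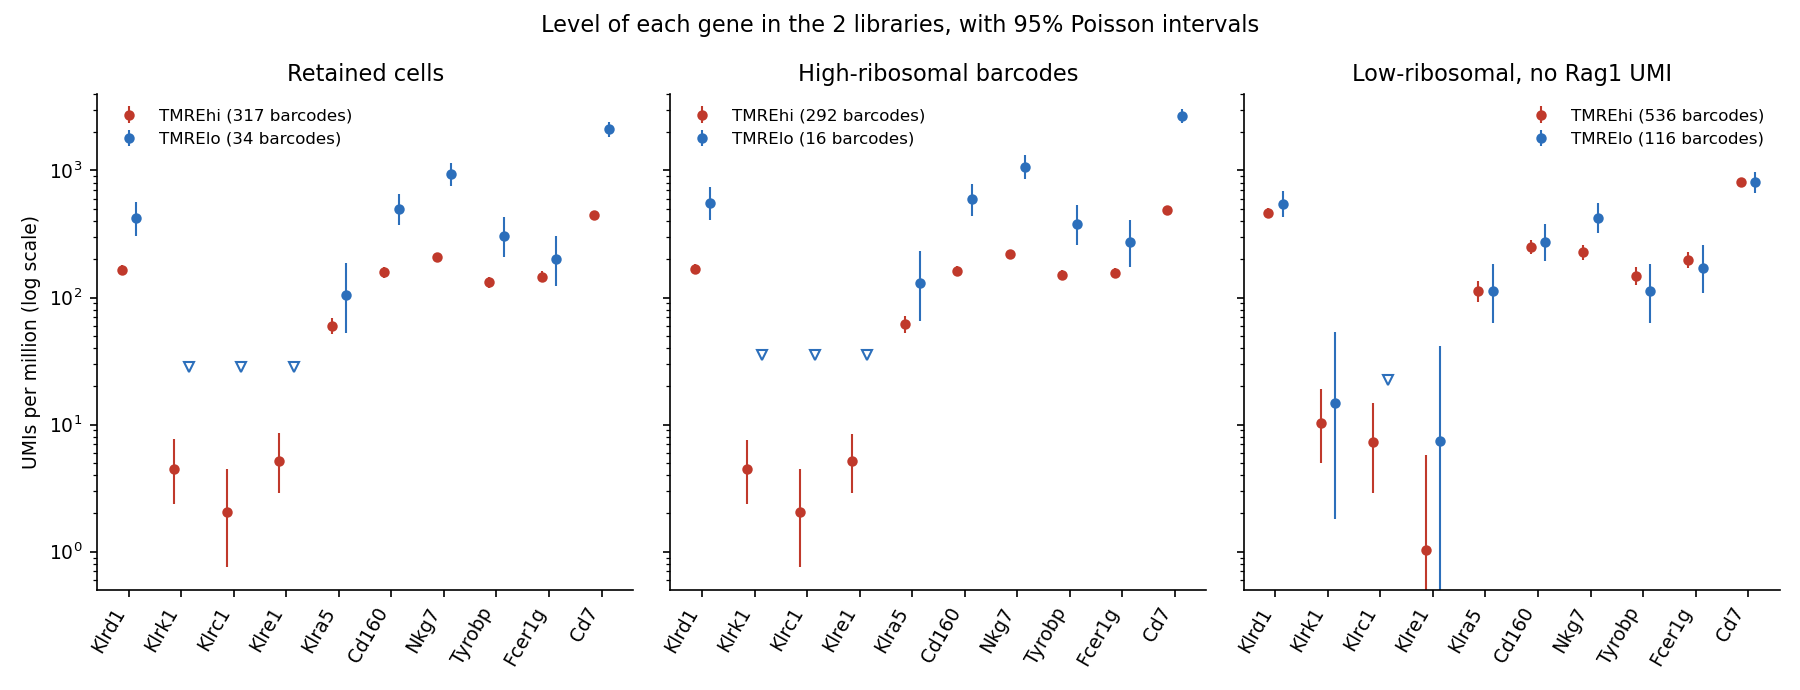
CPM (y axis, log scale) of each gene in TMREhi and TMRElo, in retained cells, high-ribosomal barcodes and low-ribosomal barcodes without Rag1 UMIs, with 95% Poisson intervals and open triangles at the level of 3 UMIs where the count was 0. Among retained cells Cd7 (449 and 2113) and Nkg7 (208 and 933) show the widest gaps of the genes with UMIs in both libraries. In the low-ribosomal panel the measured genes lie close together except for Nkg7 (227 and 425). Klre1, with 1 UMI in each library, and Klrc1, with 0 in TMRElo, lie apart there.

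The TMRElo-fold was larger in the high-ribosomal than in the low-ribosomal class for each of the 7 measured members. In high-ribosomal barcodes Cd7 stood at 489 CPM in TMREhi and 2678 in TMRElo (5.48-fold higher in TMRElo, 4.74–6.31), Nkg7 at 218 and 1067 (4.89-fold, 3.87–6.10), and Klrd1 at 168 and 557 (3.32-fold, 2.41–4.49). There 6 of 7 members were at least 2-fold lower in TMREhi, against 20.6% of genes, and 0 were higher, against 8.91%. In the low-ribosomal class TMRElo was 2.51-fold higher for Nkg7 (1.84–3.37), 1.57-fold for Klrd1 (1.21–2.01) and 1.28-fold for Cd7 (1.04–1.57), and the intervals of the other members included 1. In the same class without Rag1-positive barcodes, 0 of 8 members were 2-fold higher (14.1% of genes) and 0 were 2-fold lower (13.8% of genes), and the median log2 ratio was -0.073, beside -0.070 over all genes. Nkg7 was the one member whose interval excluded 1 there, at 227 CPM in TMREhi and 425 in TMRElo (1.87-fold, 1.38–2.52). The difference between the classes was not tested. TMRElo had 16 high-ribosomal barcodes, of which 5 held 54.8% of the UMIs, and the part of these cells in the result was not tested.

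Cells led by the Vγ1 family were also compared between the fractions, to hold the leading family fixed. The family pools Trgv2, Tcrg-V1 and Tcrg-V3, whose mix may differ between the libraries. Barcodes with a Tcrg-V5 UMI that did not lead stayed in. Over all Vγ1-family-led barcodes, 5 of 7 members were at least 2-fold lower in TMREhi, against 31.1% of genes, and 0 were higher, against 11.6%. In their high-ribosomal class (198 TMREhi and 10 TMRElo barcodes), TMRElo was 5.86-fold higher for Cd7 (410 and 2403 CPM), 4.54-fold for Cd160 and 3.61-fold for Nkg7, and Klrd1 stood at 150 and 601 CPM. In their low-ribosomal class the folds were 1.15 for Cd7, 1.32 for Klrd1, 1.26 for Cd160 and 1.19 for Nkg7, with intervals that included 1. Tyrobp, with 42 UMIs in TMREhi and 1 in TMRElo, was 6.26-fold (1.06–253) and Fcer1g, with 71 and 2 UMIs, 5.29-fold (1.41–44.6) higher in TMREhi there. Part of these TMREhi UMIs lay in barcodes with at least 3 UMIs over 6 myeloid markers. Without such barcodes, 402 of the 404 Vγ1-family-led TMREhi barcodes stayed, and all 198 high-ribosomal ones were among them. Over both classes Tyrobp then went from 204 to 183 UMIs and Fcer1g from 303 to 296. The low-class folds were not recomputed without them. TMREhi had 38 Vγ5-led barcodes among 1025, whereas TMRElo had 1 among 133. A UMI of the Vγ5 segment Tcrg-V5, leading or not, was in more barcodes of both libraries. In TMRElo these were 5 of 14 barcodes with at least 5 members, 2 of 61 with 1 to 4 and 1 of 58 with none. In TMREhi they were 41 of 88, 33 of 402 and 12 of 535. Without Vγ5-led barcodes, retained cells had Klrd1 at 142 and 419 CPM (2.95-fold higher in TMRElo, 2.11–4.04). Of 7 members, 6 were then at least 2-fold lower in TMREhi, against 30.7% of genes, and 0 were higher, against 8.79%. Barcodes in which Tcrg-V5 did not lead stayed in this comparison.

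Within TMREhi, the summed lectin-like receptors differed between the classes about as much as the median gene did. The 5 Klr genes summed to 241 CPM in high-ribosomal and 443 in low-ribosomal barcodes, a high to low ratio of 0.544 (0.487–0.608), or -0.88 on the log2 scale beside a median of -0.85 over all measured genes. Klrd1 stood at 168 and 344 CPM, 2.05-fold (1.80–2.34) higher in the low class, and Klra5 at 61.6 and 84.6 (1.37-fold, 1.07–1.75). Klre1 lay the other way, with 15 UMIs in the high and 1 in the low class, and the intervals of Klrk1 (13 and 10 UMIs) and Klrc1 (6 and 7 UMIs) included 1. Nkg7 and Tyrobp had the opposite order, at 218 and 168 CPM (1.30-fold higher in the high class, 1.11–1.52) and at 151 and 113 (1.33-fold, 1.11–1.62). Cd160 (162 and 189) and Fcer1g (156 and 149) had intervals that included 1, and Cd3e stood at 609 and 603. Of the 7 measured members 1, Klrd1, was at least 2-fold lower in the high class, against 46.5% of genes, and 0 were higher, against 11.0%. The counts were the same without Rag1-positive barcodes, against 46.4% and 11.3% of genes. With these left out of the low class, the orders of Nkg7, Tyrobp and Klre1 were within counting error. The high to low ratio was 0.963 (0.825–1.13) for Nkg7, 1.02 (0.841–1.24) for Tyrobp and 4.96 (0.763–209) for Klre1. Fcer1g (0.789, 0.665–0.940) and Cd160 (0.650, 0.556–0.763) were then lower in the high class. The Klr sum then gave -1.29 on the log2 scale, beside a median of -0.85 over genes. In TMRElo the 5 Klr genes summed to 687 CPM in the high and 674 in the low class, a ratio of 1.02 (0.721–1.43), while Cd7 stood at 2678 and 800 (3.35-fold higher in the high class, 2.65–4.25).

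Most barcodes with a lectin-like receptor UMI also held T cell receptor complex transcripts, as did most barcodes of the library. Of the 157 TMREhi barcodes with a lectin-like receptor UMI, 146 (93.0%, 87.8–96.5) also held Cd3e, Cd3d or Cd3g, as did 911 of all 1025 (88.9%) and 447 of 535 without any member UMI (83.6%, 80.1–86.6). The interval of the receptor-positive share thus included the share over all barcodes. With at least 2 receptor UMIs the share was 115 of 120 (95.8%), and it was 54 of 54 in the high-ribosomal and 92 of 103 (89.3%) in the low-ribosomal class. Depth bears on this share. Thinned to 1000 UMIs, 105 of 121 receptor-positive barcodes (86.8%) held a CD3 UMI, beside 77.2% of those without a member. By gene, beside the 88.9% over all barcodes, the share was 286 of 292 for Cd160, 266 of 270 for Nkg7, 229 of 241 for Cd7, 119 of 126 for Fcer1g, 77 of 83 for Tyrobp, 69 of 71 for Klra5 and 136 of 147 for Klrd1. In TMRElo 38 of 40 receptor-positive barcodes held a CD3 UMI, and 39 of 58 (67.2%) without a member did. Only 4 of the 157 TMREhi and 0 of the 40 TMRElo receptor-positive barcodes lacked CD3, γ V and Trdc UMIs together, and they held 1 UMI of the 5 NK markers. Trdc, the δ constant gene, was found in 53.5% of receptor-positive TMREhi barcodes, 53.2% of all and 40.2% of those without a member.

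The members were detected in the same barcodes. TMREhi barcodes were thinned to 2000 UMIs, and αβ-lineage-like and myeloid barcodes were left out, which gave 479 barcodes, 49 of them with Klrd1. Of these 49, 87.8% held Cd7, against 11.4% of the 430 without Klrd1. The shares were 73.5% and 18.4% for Nkg7, 67.3% and 15.1% for Cd160, 63.3% and 3.26% for Fcer1g, 53.1% and 0.930% for Tyrobp, and 51.0% and 0.465% for Klra5. Every Klra5-positive barcode (27 of 27, 87.2–100) held Cd7, and 25 of 27 held Klrd1. Of the adaptors, 80.0% of the 30 Tyrobp-positive barcodes held Fcer1g, against 4.68% of the others. Nkg7 and Cd160 were more widely spread, since 31.3% of 115 Nkg7-positive and 33.7% of 98 Cd160-positive barcodes held Klrd1. Without Vγ5-led barcodes the pattern was close to this, with Cd7 in 85.0% of 40 Klrd1-positive barcodes and 11.2% of the others, and Klra5 in 42.5% and 0.234%. This kept 40 of the 49 Klrd1-positive barcodes, and barcodes with a Tcrg-V5 UMI that did not lead stayed in. A part of Vγ5-transcribing cells in the remaining pattern was not tested.

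**Figure D5:**
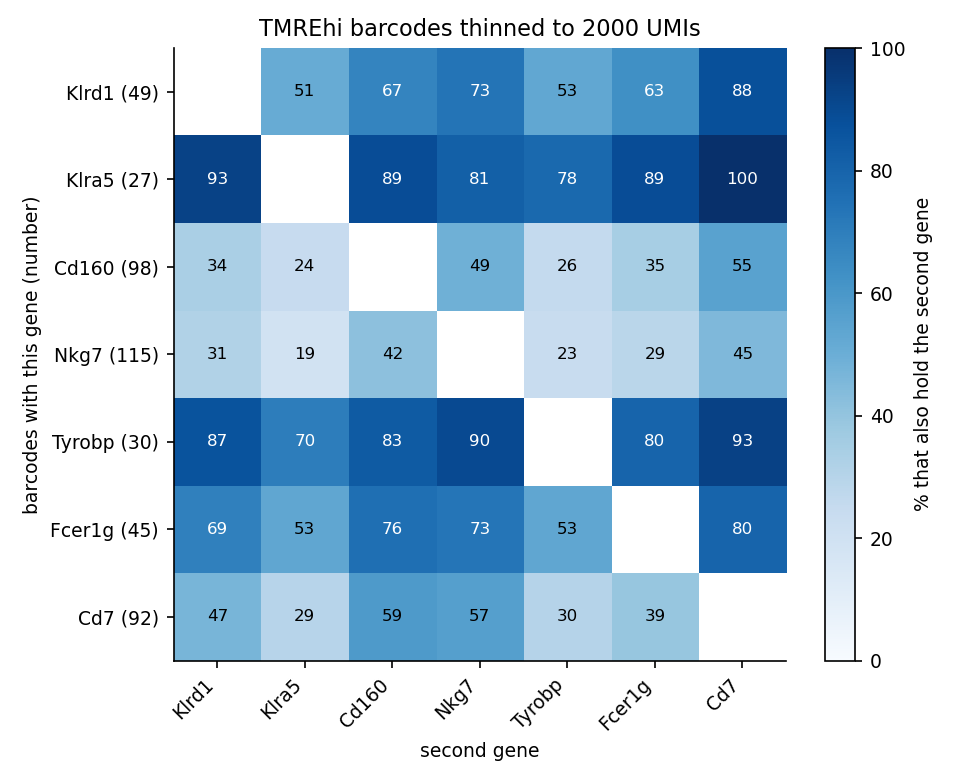
Percentage of TMREhi barcodes with the row gene (number in parentheses, thinned to 2000 UMIs) that also held the column gene. The rows of Klrd1, Klra5 and Tyrobp are dark, with Cd7 in 87.8% of Klrd1-positive and all 27 Klra5-positive barcodes, and the rows of Nkg7 and Cd160 are paler, with Klrd1 in 31.3% and 33.7%.

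A small set of barcodes held many of the members at once. In TMREhi, 88 of the 908 barcodes that were not αβ-lineage-like (9.69%) held 5 or more of the 10 members, 45 held 7 or more, and 0 held 9 or 10. These 88 held 71.9% of the member UMIs, a share that follows in part from how they were picked, and 87 of them had a CD3 UMI. The Vγ1 family led 38 of them, Vγ5 25, Vγ6 8 and Vγ4 4. A Tcrg-V5 UMI, leading or not, was found in 41 of the 88 (46.6%, 35.9–57.5), against 8.42% (5.87–11.6) of the barcodes with 1 to 4 members and 2.80% of the 428 without any. Trdv4, a δ V segment, was likewise found in 46.6%, 24.2% and 15.2%. The sets differed in depth, with median UMIs of 2122 for 5 or more members, 2929.5 for 1 to 4 and 1825.5 for none. In TMRElo, 14 of 133 barcodes (10.5%) held 5 or more members and 70.5% of the member UMIs, and 5 of the 14 held a Tcrg-V5 UMI.

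Klrc1, which encodes a partner of CD94, and the receptor genes Klrk1 and Klre1 were near the limit of detection. Klrk1 (NKG2D) gave 23 UMIs in 11 TMREhi barcodes, 7 of them in 1 barcode, and 2 UMIs in 1 TMRElo barcode. Klrc1 (NKG2A) had 13 UMIs in 4 TMREhi barcodes and 0 in TMRElo, and Klre1 had 16 in 9 and 1 in 1. Klrd1 was present in 8 of the 11 Klrk1-positive, 4 of 4 Klrc1-positive and 9 of 9 Klre1-positive TMREhi barcodes. In Vγ5-led barcodes the 3 genes had 1, 3 and 0 UMIs, and in the deeper Vγ1-family-led set 16, 10 and 14. Retained TMREhi cells held 13, 6 and 15 UMIs of them and retained TMRElo cells 0, where 3 UMIs correspond to 28.5 CPM, so no difference was detectable at this depth. The activating partner gene Klrc2, not one of the 10, stood at 417 CPM in Vγ5-led and 5.85 in Vγ1-family-led barcodes, with the reservation on near-identical Klrc copies made above.

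Markers of other cells that use these genes were also counted. In TMREhi, 7 barcodes with at least 3 UMIs over 6 myeloid markers, and 0 TMRElo barcodes, held 101 Tyrobp UMIs (17.2% of the total) and 102 Fcer1g UMIs (15.6%), and 0 UMIs of the other 8 members. Without them Tyrobp stood at 105 CPM in retained TMREhi cells and 305 in TMRElo (2.89-fold, 1.94–4.17), and Fcer1g at 114 and 200 (1.75-fold, 1.07–2.72), so that the Fcer1g interval no longer included 1. All 6 myeloid markers had UMIs in TMREhi (429 in all) and none in TMRElo. Of the NK markers, Ncr1 had 13 UMIs in TMREhi and 0 in TMRElo, Eomes 4 and 11, Klrb1c 90 and 8, Tbx21 14 and 0, and Prf1 10 and 1. These raw counts come from 4235563 UMIs in TMREhi and 219352 in TMRElo. Scaled to depth, the 5 NK markers summed to 30.9 CPM in TMREhi and 91.2 in TMRElo, the latter from 20 UMIs. In TMRElo 3 UMIs are 13.7 CPM, so its counts of 0 for Ncr1 and Tbx21 show no difference. Cpa3, on the mast cell and basophil list, had 573 UMIs in TMREhi and 1 in TMRElo, while Ms4a2, Mcpt8 and Gata2 were at 0 in both. The 5 innate lymphoid markers had 2265 UMIs in TMREhi (535 CPM) and 208 in TMRElo (948 CPM), of which Il7r gave 1256 and 110. Dendritic cell markers had 18 and 0 UMIs. B cell and erythroid markers were at 0.

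Outside the 10 genes, a few transcripts followed the lectin-like receptors from cell to cell. Over 266 retained TMREhi cells thinned to 2000 UMIs, the Pearson correlation with the summed Klr genes on a log2 scale was highest for the chemokine gene Ccl5 (0.82), the carbonic anhydrase gene Car2 (0.71) and the chemokine gene Xcl1 (0.62), among 4324 genes. Gimap7 (0.60), Epsti1 (0.57), the cathepsin gene Ctsw (0.51), Gimap4 (0.45) and Gimap3 (0.45) came next. Of the members, Cd7 (0.73), Tyrobp (0.71), Fcer1g (0.67), Cd160 (0.51) and Nkg7 (0.46) lay in the same range. These cells share 1 library, and the values are descriptions. By segment, Ccl5 stood at 3906 CPM in Vγ5-led and 338 in Vγ1-family-led barcodes, Xcl1 at 1299 and 118, Ctsw at 1202 and 153, and Car2 at 242 and 28.5.

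Among other genes of the pathway, the receptors and ligands were mostly lower in TMREhi retained cells, and the downstream kinases and adaptors were mixed. Of 10 other NK receptor genes measured, 8 were at least 2-fold lower in TMREhi and 0 higher, with a median log2 ratio of -1.84. Among them the interleukin 2 receptor gene Il2rb stood at 53.3 CPM in TMREhi and 314 in TMRElo, Cd48 at 128 and 381, and Cd96 at 53.0 and 162. Of 4 other lectin-like genes, 2 were lower, with Clec2d, a ligand gene of the NKR-P1 receptors, at 67.1 and 238. Of 5 ligand genes 4 were lower, and the class I genes H2-D1 (340 and 1094) and H2-K1 (318 and 1028) were among them. Of 18 adaptor and kinase genes 5 were lower and 1 higher. The DAP10 adaptor gene Hcst stood at 145 and 305, whereas Lat (454 and 419) and Cd247 (265 and 247) had ratios of 1.08 and 1.07. Of 10 granule genes 5 were lower and 3 higher, with Gzma at 1793 and 85.6 and Gzmb at 32.0 and 752. Among the 3 higher, only Gzma had an interval that excluded 1, and the others had 2 and 1 UMIs in TMRElo. Each of these lists had at least 1 called gene with 4 or fewer TMRElo UMIs and an interval that included 1. All these gene counts stand beside the 30.5% of genes lower and 8.77% higher in the same comparison, and the lists were written with results of these data known.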

How the data were processed

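Per the file headers, the authors deposited raw UMI counts per gene and barcode, made with Cell Ranger 3.0.2. The submitters' processing notes name Cell Ranger 3.0 and the mm10 build. The annotation release is not given in the sources used here. Both 5′ libraries were sequenced on a NextSeq instrument, per the labels. Each fraction is 1 library, so counts were summed over barcodes without any test, and p-values were not computed. Retained cells had at least 500 genes and at most 10% mitochondrial UMIs. Ribosomal classes were split at 15% of UMIs from 84 ribosomal protein genes. A barcode's leading γ V segment had the most UMIs, ties being left out, and αβ-lineage-like barcodes had at least 2 Rag1 UMIs and no γ V UMI.

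Levels are counts per 1000000 UMIs (CPM) with exact Poisson intervals, shares have exact Clopper-Pearson intervals and ratios exact conditional binomial intervals (95%, counting error only). Log2 ratios used a pseudocount of 1 CPM. Genes counted as measured had a mean of at least 10 CPM, or 50 for segments. A limit of 3 UMIs stands for a count of 0. Thinning to 1000 or 2000 UMIs used seed 1. Named genes were the 10 members, up to 4 genes of each other list by highest mean, and the 8 genes correlated most with the summed Klr genes. Klrc2 with its levels by segment was named after its values were seen. Members and lists were chosen with earlier results of these data known, and the myeloid rule was set after seeing the data. Scrublet marked 2 of 1025 TMREhi barcodes (0.195%) and 24 of 133 TMRElo barcodes (18.0%), so the TMREhi call is too low to judge doublets by, and none were removed. Of the marked barcodes, 0 and 5 held a lectin-like receptor. Gene positions came from GENCODE vM21 (GRCm38). The code ran under Python 3.11.15 with scanpy 1.11.5, matplotlib 3.10.9, pandas 2.3.3, scipy 1.17.1 and numpy 2.4.6, and was tested on simulated data.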

Additional observations from a re-analysis of the deposited data

Results flagged for a closer look

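For 2 members the order of the ribosomal classes differed between the libraries, with Rag1-positive barcodes left out. Cd160 was 1.54-fold higher in the low-ribosomal class of TMREhi (1.31–1.80) and 2.15-fold higher in the high-ribosomal class of TMRElo (1.38–3.38). Cd7 was 1.66-fold higher in the low class of TMREhi (1.52–1.82) and 3.33-fold higher in the high class of TMRElo (2.63–4.23). For the adaptors, the order of the libraries differed between the classes of Vγ1-family-led barcodes. Tyrobp was 4.37-fold higher in TMRElo in the high class (2.57–7.05) and 6.26-fold higher in TMREhi in the low class, from 42 and 1 UMIs (1.06–253). Fcer1g was 2.73-fold higher in TMRElo in the high class (1.56–4.47) and 5.29-fold higher in TMREhi in the low class, from 71 and 2 UMIs (1.41–44.6). The low class of Vγ1-family-led TMREhi barcodes included myeloid barcodes. Without these, Tyrobp went from 204 to 183 UMIs and Fcer1g from 303 to 296 over both classes. The high class was unchanged at 198 barcodes, and the low-class folds were not recomputed. With 1 library per fraction, none of these differences was tested.

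Barcodes with under 500 genes, which entered the comparisons only through the alternative that kept all barcodes, also held member UMIs. The 177 of TMREhi had 50 in 114922 UMIs, 435 CPM, where 3 UMIs would be 26.1. The 63 of TMRElo had 22 in 25696 UMIs, 856 CPM, where 3 UMIs would be 117.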

How the results depend on the processing

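The median log2 ratio of the members between TMREhi and TMRElo was below 0 under every alternative run, from -1.73 to -0.073. The median over all genes was also below 0 in each, from -0.36 to -0.070. The values nearest 0, -0.073 for members and -0.070 for all genes, were those of low-ribosomal barcodes without Rag1-positive ones. In that alternative 0 members were 2-fold lower in TMREhi, and the TMREhi to TMRElo ratio was 1.32 for Tyrobp, 1.15 for Fcer1g and 1.01 for Cd7, the reverse of retained cells, with intervals that included 1. Without the richest barcode of each member 3 members were 2-fold lower, and the ratio of Klra5 went from 0.572 to 1.08. Of the other recomputed member ratios, 16 moved by more than the counting interval of the retained cells, all without a change of direction. The high to low class ratio of the Klr genes was 0.445 without Rag1-positive barcodes and 0.639 scaled outside mitochondrial and ribosomal protein genes. Thinning took the Vγ1-family receptor share to 12.6% at 1000 and 10.5% at 2000 UMIs, and the Vγ4 share to 3.03% at 2000. The CD3 share of receptor-positive barcodes was 86.8% at 1000 UMIs, 100% at 2000 and 98.1% in retained cells. The cause of these shifts was not tested. The count of members 5-fold higher in Vγ5-led barcodes, with all its alternatives, and the alternatives without myeloid or Vγ5-led barcodes were chosen after seeing the data. No paired analysis was possible because each fraction has 1 library. The 34 retained TMRElo cells, where 3 UMIs are 28.5 CPM, limit all comparisons of rare receptors.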
